A study of Mus musculus with 12 samples.

Results

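The chemokine ligands of the mouse other than Cxcl12 were followed across 4 stromal populations sorted from bone marrow. Members were the protein-coding genes whose symbol starts with Ccl or Cxcl and a number, or is Cx3cl1 or Xcl1, with Cxcl12 left out, and 36 of the 49585 genes in the count tables met this rule. The same pattern also matched Cxcl11 and a pair of Ccl19 pseudogenes, which the annotation does not class as protein-coding. All libraries came from wild-type male C57BL/6 mice aged 8 to 10 weeks at steady state, with no treatment, and each held RNA from 2000 cells negative for CD45, Ter119 and CD31. Itga8+ MSCs were Itga8+ Alcam+ Sca-1-, and Itga8- Alcam+ BLCs (bone-lining cells, which the labels call osteoblasts) were Itga8- Alcam+ Sca-1-. Sca-1+ MSCs were Alcam- Sca-1+, and CD51+CD140a+ MSCs were sorted on those 2 antigens. Each population had 3 libraries. Nothing states that these came from separate mice, so p-values measure only the spread between these samples. The first 3 populations were released from bone fragments with collagenase, whereas CD51+CD140a+ MSCs came from flushed marrow digested with Accumax, so population and isolation cannot be told apart in any comparison with CD51+CD140a+ MSCs.

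Chemokines are small secreted proteins that steer leukocytes along gradients by binding G protein-coupled receptors, and they are grouped by the spacing of their first cysteines into CC, CXC, CX3C and XC families. In bone marrow, Cxcl12 from stromal cells retains haematopoietic stem cells and neutrophils through Cxcr4. CCR2 ligands draw monocytes out of the marrow, and CXCR2 ligands draw out neutrophils. Many inflammatory chemokine genes lie side by side in clusters and are induced by NF-kB or interferon signalling, and atypical receptors bind chemokines without G protein signalling and clear them.

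Total counts ran from 17580677 to 31332475 per library, so that 3 counts corresponded to between 0.0819 and 0.180 CPM (counts scaled to library size by the TMM method). The sort antigens were only partly mirrored in RNA. Ly6a, which encodes Sca-1, was at 611 to 658 CPM in Sca-1+ MSCs and at most 35.7 CPM in any other library. Itga8 was at 35.2 to 199 CPM in Itga8+ MSCs and at most 4.17 CPM in Itga8- Alcam+ BLCs, but CD51+CD140a+ MSCs held 53.1 to 82.9 CPM of it. Alcam did not exceed 5.81 CPM anywhere. Neither antigen of the CD51+CD140a+ sort set it apart from Sca-1+ MSCs, with Pdgfra (CD140a) at 681 to 867 CPM against 734 to 1019 CPM and Itgav (CD51) at 121 to 195 CPM against 126 to 150.2 CPM. Osteoblast markers summed to 32134 to 114231 CPM in Itga8- Alcam+ BLCs and at most 19458 CPM in any other library, tendon markers to 9911 to 14413 CPM in Itga8+ MSCs and at most 6601 CPM elsewhere, and LepR+ stromal markers to 9623 to 10848 CPM in CD51+CD140a+ MSCs and at most 299.98 CPM elsewhere. Itga8+ replicate 2 stood apart from the other Itga8+ libraries, with a correlation of log2 CPM across genes of 0.905 and 0.855 to them against 0.962 between those. Its 12 neutrophil and monocyte markers summed to 11889 CPM, against 2322 and 5713 CPM in the other Itga8+ libraries. Its osteoblast markers summed to 686 CPM against 6956 and 7973 CPM, and its mesenchymal markers to 1540 against 4259 and 13534 CPM. Its tendon markers, at 11374 CPM, lay between those of the other Itga8+ libraries.

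Of the 36 ligands, 15 reached a mean of at least 5 CPM in at least 1 population, 13 stayed under that level, and 8 were at 3 counts or fewer in every library. Of these 8, Ccl1, Ccl12, Ccl21a, Ccl21b, Ccl26 and Ccl27b had no count at all, and Cxcl15 and Xcl1 had 3 and 1 at most. Among the 15, the highest mean was in CD51+CD140a+ MSCs for 6 ligands, in Sca-1+ MSCs for 5, in Itga8+ MSCs for 4 and in Itga8- Alcam+ BLCs for 0. Without Itga8+ replicate 2, a count added after seeing the data, these numbers were 7, 5, 0 and 3, with Ccl3, Ccl4 and Ccl6 then highest in Itga8- Alcam+ BLCs and Cxcl16 in CD51+CD140a+ MSCs. Summed as TPM, a scale that also divides by gene length, the 36 ligands came to 441 ± 93.5 TPM in Itga8+ MSCs and 472 ± 114 TPM in Itga8- Alcam+ BLCs (mean ± SD, n = 3 each). The sum was 2718 ± 556 TPM in Sca-1+ MSCs and 5977 ± 509 TPM in CD51+CD140a+ MSCs, and no library of either of these populations overlapped with one from the first pair. For scale, Cxcl12 alone was at 112, 85.0 and 208 TPM in the 3 bone-derived populations and at 21422 TPM in CD51+CD140a+ MSCs. In bulk samples, fewer cells of a type and less RNA per cell cannot be told apart.

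**Figure D1:**
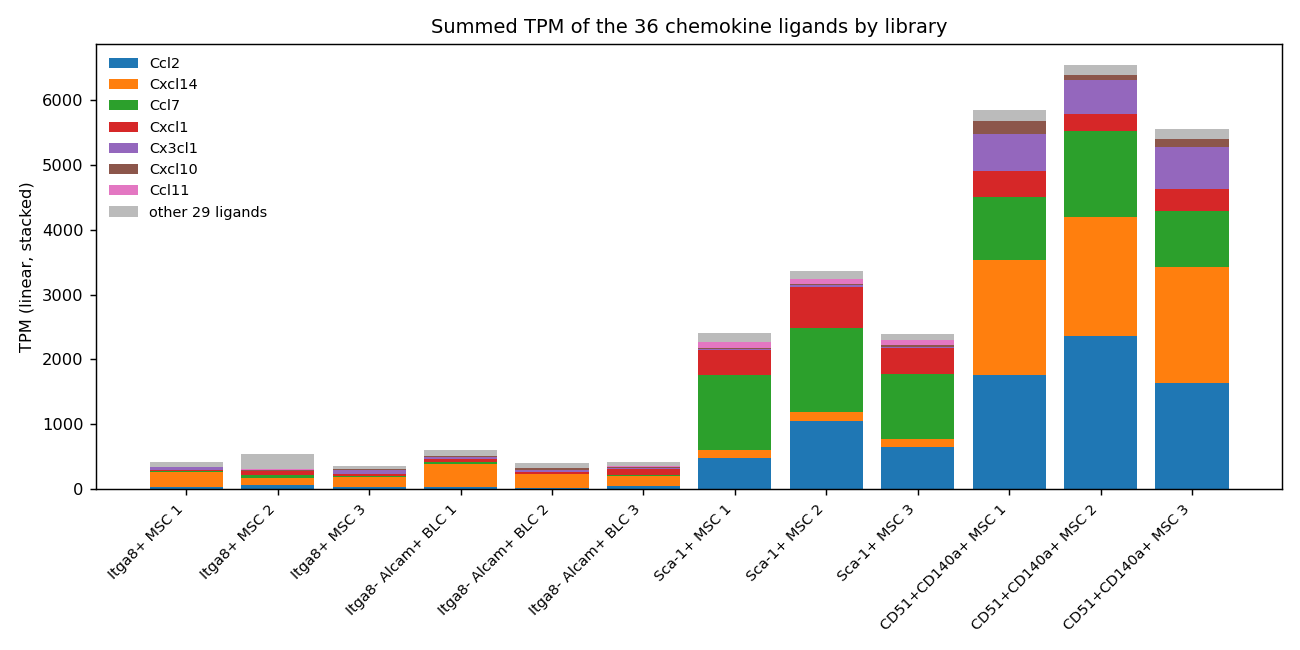
Stacked TPM (linear axis) of the 36 ligands in each of the 12 libraries, with the 7 ligands of highest mean shown in colour and the other 29 in grey. The bars of the Alcam+ sorts stay between 359 and 603 TPM, those of Sca-1+ MSCs between 2387 and 3360 TPM, and those of CD51+CD140a+ MSCs between 5548 and 6540 TPM.

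The make-up of the sum differed between populations. Cxcl14 took 56.4% and 41.7% of it in Itga8+ replicates 1 and 3 and between 36.7% and 59.4% in the Itga8- Alcam+ libraries. In Itga8+ replicate 2 the leading ligand was Ccl4, at 19.6%. Ccl7 led in all 3 Sca-1+ libraries with 38.4% to 48.1%, followed by Ccl2 and Cxcl1. In CD51+CD140a+ MSCs, Cxcl14 and Ccl2 were the leading pair. They were nearly level in replicate 1, at 30.3% and 30.2%. Ccl2 led in replicate 2, at 36.2% against 27.9%, and Cxcl14 in replicate 3, at 32.4% against 29.4%. The 3 leading ligands together took between 84.4% and 88.5% of the sum in the Sca-1+ libraries and between 77.0% and 84.5% in the CD51+CD140a+ libraries.

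The populations were compared pairwise with edgeR's quasi-likelihood test, and a gene was called at a false discovery rate (FDR) under 0.1 over all 18648 genes tested with a fold change over 2. Genes needed 0.5 CPM in at least 1 library to be tested, and 23 of the 36 ligands passed while 13 did not. Ccl8 passed through Sca-1+ libraries alone, and Ccl17 and Ccl19 through CD51+CD140a+ libraries alone. Between Itga8+ MSCs and Itga8- Alcam+ BLCs, the question being what divides the Alcam+ sort, 1 of the 23 ligands was called, lower in Itga8+ MSCs, and 3.82% of all genes were called in that comparison (2.16% lower and 1.66% higher). Between Itga8+ and Sca-1+ MSCs 10 ligands were called, against 21.7% of all genes. Here 7 were lower in Itga8+ MSCs (8.89% of all genes) and 3 higher (12.9%). Between Itga8+ and CD51+CD140a+ MSCs 12 were called, against 35.6% of all genes, with 8 lower (14.3%) and 4 higher (21.2%) in Itga8+ MSCs. Itga8- Alcam+ BLCs differed from Sca-1+ MSCs in 7 ligands, against 26.4% of all genes, and 6 of these were lower (11.9%) and 1 higher (14.5%). They differed from CD51+CD140a+ MSCs in 12, against 35.3% of all genes, 9 being lower (14.9%) and 3 higher (20.4%). Between Sca-1+ and CD51+CD140a+ MSCs 9 ligands were called, against 20.5% of all genes, of which 6 were lower in Sca-1+ MSCs (9.3%) and 3 higher (11.2%). The median log2 fold change of the 23 tested ligands was -1.15 for Itga8+ over CD51+CD140a+ MSCs and -1.99 for Itga8- Alcam+ BLCs over CD51+CD140a+ MSCs, where the medians of all tested genes were 0.18 and 0.09. In the other comparisons it lay between -0.18 and 0.29. The libraries of Itga8+ MSCs and Itga8- Alcam+ BLCs did not overlap for 3 of the 23 ligands, against 14.2% of all genes, and those of Itga8+ and Sca-1+ MSCs for 10, against 37.6%. There was no overlap for 10 ligands between Itga8+ and CD51+CD140a+ MSCs (44.4% of all genes), 11 between Itga8- Alcam+ BLCs and Sca-1+ MSCs (45.7%), 12 between Sca-1+ and CD51+CD140a+ MSCs (45.9%) and 16 between Itga8- Alcam+ BLCs and CD51+CD140a+ MSCs (49.8%). These comparisons share libraries and are not independent of each other. With 3 libraries against 3, the exact two-sided permutation test of a single ligand cannot go below p = 0.1, and every ligand described as not overlapping between 2 populations had that value.

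**Figure D2:**
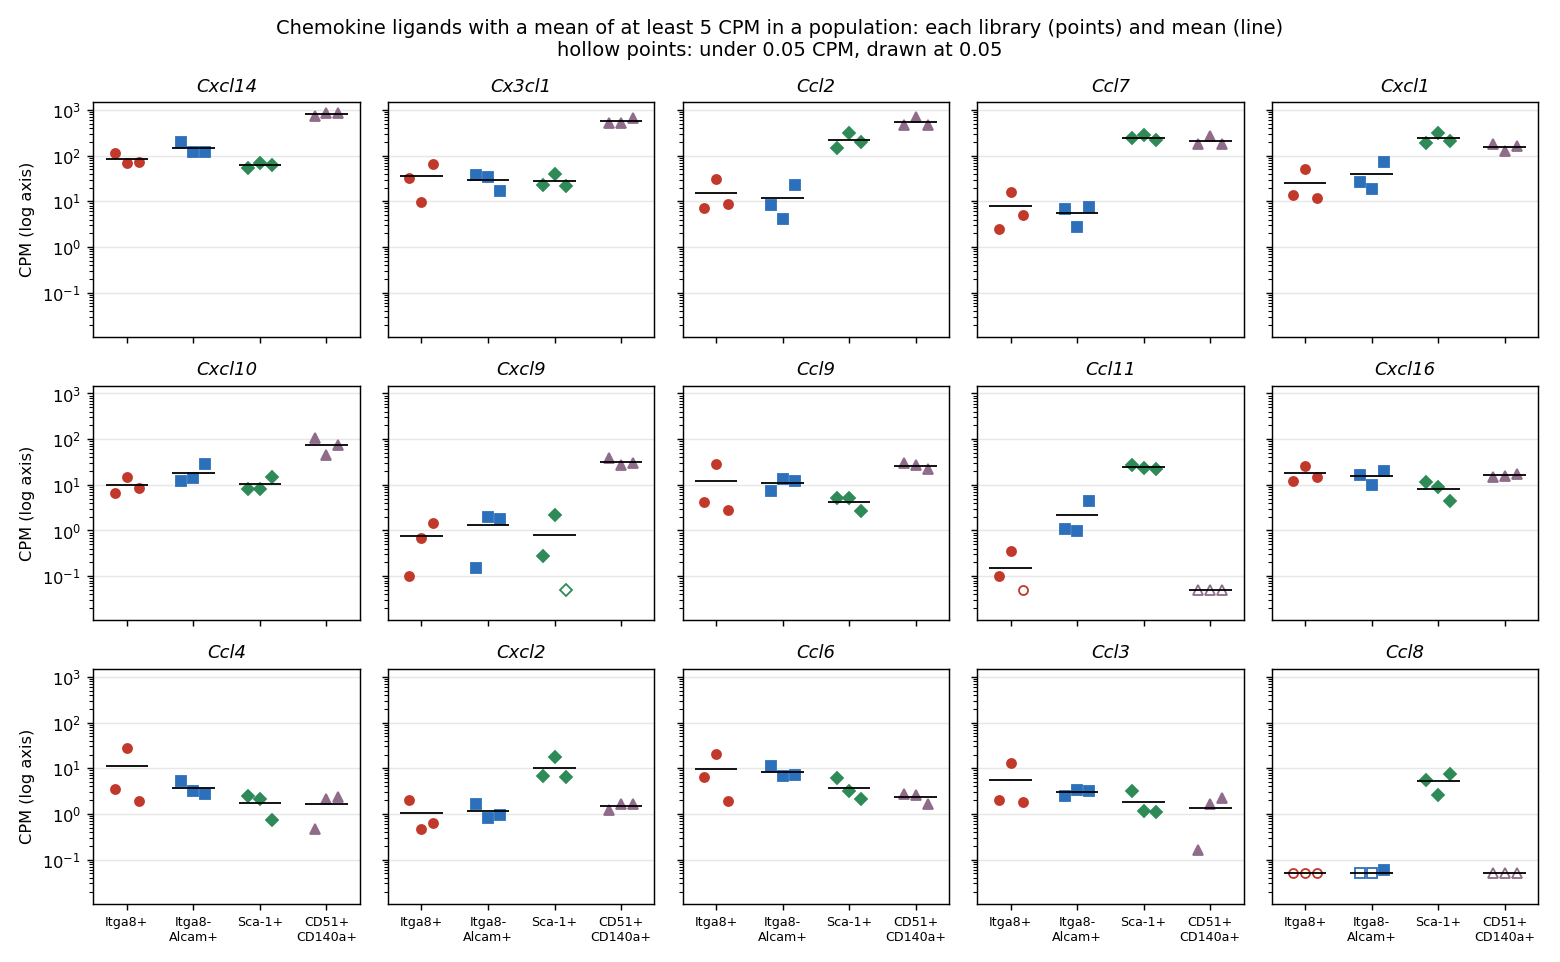
CPM on a log axis of the 15 ligands with a mean of at least 5 CPM in a population, with a point per library and a line at the mean of 3. Hollow points are under 0.05 CPM and drawn there. Cxcl14, Cx3cl1, Cxcl10 and Cxcl9 stand apart in CD51+CD140a+ MSCs, Ccl11, Ccl8 and Cxcl2 in Sca-1+ MSCs, and Ccl2, Ccl7 and Cxcl1 in both.

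The CC ligands of monocytes and eosinophils separated Sca-1+ MSCs from the Alcam+ sorts most widely. Ccl2 and Ccl7, the main CCR2 ligands that recruit monocytes, were shared with CD51+CD140a+ MSCs, whereas Ccl11 (eotaxin, a CCR3 ligand for eosinophils) and Ccl8, which attracts monocytes and T cells, were not. Of the 7 ligands of this group, 4 were tested, and all 4 were higher in Sca-1+ MSCs than in each Alcam+ sort (8.89% of all genes against Itga8+ MSCs and 11.9% against Itga8- Alcam+ BLCs). Ccl8 reached 0.5 CPM in Sca-1+ libraries alone, so it was tested only through the population where it was high. The filter thus partly fixed this count in advance. Ccl12 and Ccl26 had no counts in any library, and Ccl24 reached 7 counts at most.

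Ccl2 was at 7.07, 30.8 and 8.95 CPM in Itga8+ MSCs and at 8.46, 4.12 and 22.9 CPM in Itga8- Alcam+ BLCs. It was at 145, 320.4 and 201 CPM in Sca-1+ MSCs and at 463, 695 and 481 CPM in CD51+CD140a+ MSCs. The Alcam+ sorts overlapped with each other, and neither overlapped with the other populations. By mean CPM, Ccl2 was 14.2-fold higher in Sca-1+ than in Itga8+ MSCs (log2 fold change of Itga8+ over Sca-1+ MSCs -3.83 ± 0.71 SE, FDR = 0.00402) and 35.0-fold higher in CD51+CD140a+ than in Itga8+ MSCs (FDR = 0.000384). Against Itga8- Alcam+ BLCs the folds were 18.8 (FDR = 0.00186) and 46.2 (FDR = 0.000259). Sca-1+ and CD51+CD140a+ MSCs did not overlap, with a 2.46-fold higher mean in the latter that did not pass the test (FDR = 0.218), although it did in a fit of only these populations (log2 fold change of Sca-1+ over CD51+CD140a+ MSCs -1.31, FDR = 0.00859).

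Ccl7 gave 2.52, 16.0 and 5.08 CPM in Itga8+ MSCs and 6.72, 2.73 and 7.43 CPM in Itga8- Alcam+ BLCs. The Sca-1+ libraries gave 244, 278 and 222 CPM, and the CD51+CD140a+ libraries 178, 277 and 179 CPM. The latter pair overlapped, whereas both lay far above the Alcam+ sorts. The fold over Itga8+ MSCs was 31.5 in Sca-1+ MSCs (FDR = 0.000504) and 26.9 in CD51+CD140a+ MSCs (FDR = 0.000231), and over Itga8- Alcam+ BLCs 44.1 (FDR = 0.000233) and 37.6 (FDR = 0.000136). Within the Alcam+ sorts, Itga8+ replicate 2 was the highest library for both Ccl2 and Ccl7. Without it the log2 fold changes of Itga8+ over Sca-1+ MSCs moved to -4.81 for Ccl2 and -6.05 for Ccl7, and those over CD51+CD140a+ MSCs to -6.07 and -5.78. Without Itga8- Alcam+ replicate 3, Ccl2 in Itga8- Alcam+ BLCs moved to -5.14 over Sca-1+ and -6.44 over CD51+CD140a+ MSCs.

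Ccl11 followed another order. It was at 27.8, 23.3 and 21.8 CPM in Sca-1+ MSCs, at 1.10, 0.973 and 4.38 CPM in Itga8- Alcam+ BLCs and at 0.0989, 0.364 and 0 CPM in Itga8+ MSCs, and 2 CD51+CD140a+ libraries had no count while the third had 1. No Itga8+ library overlapped with an Itga8- Alcam+ library. Ccl11 was the 1 ligand called between the Alcam+ sorts, 13.9-fold lower in Itga8+ MSCs (log2 fold change -3.72 ± 0.88 SE, FDR = 0.0473). That call was lost without Itga8+ replicate 1, where the value was -3.47, and without Itga8- Alcam+ replicate 3, where it was -2.69, and the value was -5.17 without Itga8+ replicate 2. It was also lost in a fit of only the Alcam+ sorts, at -3.75 (FDR = 0.290). Sca-1+ MSCs exceeded Itga8+ MSCs 158-fold (FDR = 0.000498) and Itga8- Alcam+ BLCs 11.3-fold (FDR = 0.00724). The first log2 value went from -7.23 to -8.73 without Itga8+ replicate 2, and the second from -3.51 to -4.55 without Itga8- Alcam+ replicate 3. Against CD51+CD140a+ MSCs, taking 3 counts per library as the floor, Ccl11 was at least 276-fold higher in Sca-1+ MSCs (FDR = 5.4e-05) and at least 24.4-fold higher in Itga8- Alcam+ BLCs (FDR = 0.000609). In Itga8+ MSCs the corresponding bound was 1.75-fold (FDR = 0.0718), the populations overlapped, and the call was lost without Itga8+ replicate 2 and without either of CD51+CD140a+ replicates 1 and 2.

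Ccl8 was read in Sca-1+ MSCs, at 5.53, 2.54 and 7.50 CPM (100, 50 and 160 counts). Over the other 9 libraries it had 1 count in all. It was at least 32.6-fold higher in Sca-1+ MSCs than in Itga8+ MSCs (FDR = 0.00218), at least 33.3-fold higher than in Itga8- Alcam+ BLCs (FDR = 0.00223), and against CD51+CD140a+ MSCs the bound was 58.9-fold (FDR = 0.000764). Sca-1+ libraries also held the endothelial markers at a summed 75.7 to 111 CPM, against 10.3 to 34.3 CPM elsewhere, with Tek the 1 marker of the 7 that was called higher there than in each other population (8.89%, 11.9% and 11.2% of all genes, against Itga8+ MSCs, Itga8- Alcam+ BLCs and CD51+CD140a+ MSCs), and with Pecam1 at most at 7.58 CPM and Cdh5 at most at 1.37 CPM. The median log2 fold change of the 7 markers was 0.07 for Itga8+ over Sca-1+ MSCs, so the sum did not describe the whole list. It was -0.44 for Itga8- Alcam+ BLCs over Sca-1+ MSCs and 0.47 for Sca-1+ over CD51+CD140a+ MSCs. The part of endothelial cells in these values was not tested.

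These ligands lie next to each other on chromosome 11 (GRCm38). Ccl2 (chr11:82035571-82037453), Ccl7 (chr11:82045712-82047525), Ccl11 (chr11:82057823-82062955), Ccl12 (chr11:82101845-82103400) and Ccl8 (chr11:82115185-82116799) share the plus strand within 79.6 kb from first to last start, and Ccl1, without a count, starts 270.1 kb from Ccl2. Neighbours did not share one pattern. In CD51+CD140a+ MSCs the mean level fell off from 1921 TPM for Ccl2 and 1056 TPM for Ccl7 to 0.0383 TPM for Ccl11, which starts 22.3 kb from Ccl2. In Sca-1+ MSCs Ccl2, Ccl7, Ccl11 and Ccl8 were at 725, 1153, 83.7 and 37.7 TPM, with Ccl12 between the last pair at 0.

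**Figure D3:**
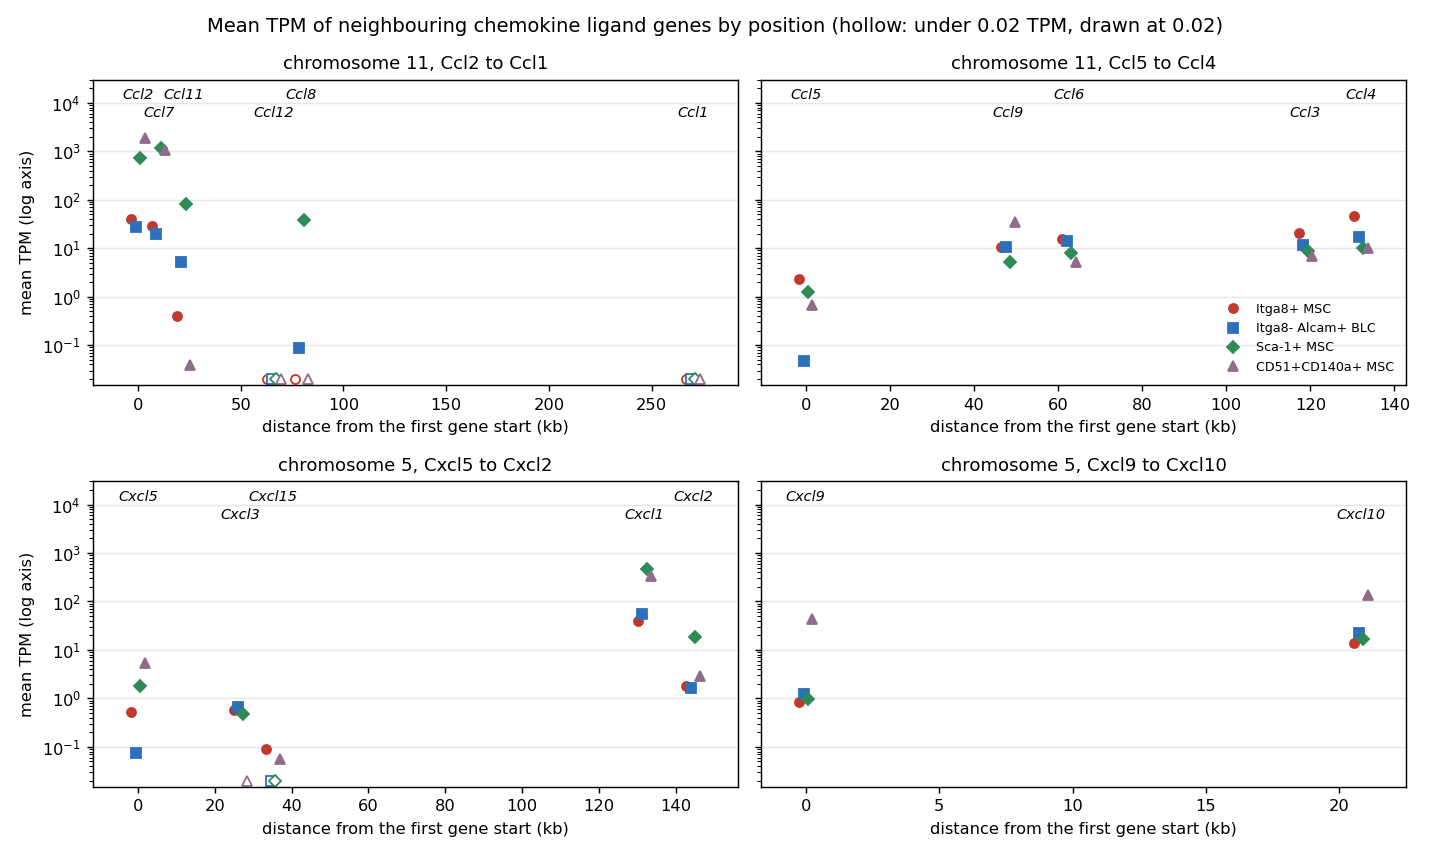
Mean TPM (log axis) of neighbouring ligand genes against the distance in kb from the first gene start of each cluster, with 1 marker per population, offset sideways, and hollow markers for values under 0.02 TPM. On chromosome 11, Ccl2 and Ccl7 are high in Sca-1+ and CD51+CD140a+ MSCs, whereas Ccl11 and Ccl8 are high in Sca-1+ MSCs. On chromosome 5, Cxcl1 is high in the same 2 populations and Cxcl2 in Sca-1+ MSCs.

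The CXCR2 ligands, which attract neutrophils, split in a similar way. Cxcl1 was high in Sca-1+ and CD51+CD140a+ MSCs, Cxcl2 in Sca-1+ MSCs alone among the population means, and Cxcl3, Cxcl5 and Cxcl15 stayed under 5 CPM in every library. Of these 5 ligands 4 were tested, and 2 (Cxcl1 and Cxcl2) were lower in each Alcam+ sort than in Sca-1+ MSCs, beside the same 8.89% and 11.9% of all genes.

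Cxcl1 was at 13.6, 50.3 and 11.6 CPM in Itga8+ MSCs and at 26.1, 18.7 and 73.0 CPM in Itga8- Alcam+ BLCs. It was at 192, 320.2 and 205 CPM in Sca-1+ MSCs and at 177, 128 and 164 CPM in CD51+CD140a+ MSCs. All Alcam+ libraries lay below all others. The mean was 9.51-fold higher in Sca-1+ than in Itga8+ MSCs (FDR = 0.00575) and 6.22-fold higher in CD51+CD140a+ than in Itga8+ MSCs (FDR = 0.00820). The folds over Itga8- Alcam+ BLCs were 6.09 (FDR = 0.0122) and 3.98 (FDR = 0.0277). Sca-1+ and CD51+CD140a+ MSCs did not overlap, at 239 ± 70.7 and 156 ± 25.1 CPM (SD, n = 3), but did not pass the test (FDR = 0.588). Without Itga8+ replicate 2 the log2 fold changes of Itga8+ MSCs went from -3.25 to -4.26 over Sca-1+ and from -2.64 to -3.61 over CD51+CD140a+ MSCs. Without Itga8- Alcam+ replicate 3 those of Itga8- Alcam+ BLCs went from -2.61 to -3.41 and from -1.99 to -2.80.

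Cxcl2 was at 6.86, 17.7 and 6.56 CPM in Sca-1+ MSCs. It was at 2.03, 0.467 and 0.635 CPM in Itga8+ MSCs, 1.64, 0.834 and 0.959 CPM in Itga8- Alcam+ BLCs and 1.20, 1.63 and 1.61 CPM in CD51+CD140a+ MSCs. Only the Sca-1+ libraries stood clear of the rest. The mean there was 9.94-fold above Itga8+ MSCs (FDR = 0.00505), 9.06-fold above Itga8- Alcam+ BLCs (FDR = 0.00460) and 7.0-fold above CD51+CD140a+ MSCs (FDR = 0.00699). Without Sca-1+ replicate 2, the highest library, the log2 fold change over Sca-1+ MSCs went from -3.30 to -2.67 for Itga8+ MSCs and from -3.17 to -2.55 for Itga8- Alcam+ BLCs, and that of Sca-1+ over CD51+CD140a+ MSCs from 2.80 to 2.18. The first was -4.22 without Itga8+ replicate 1. Cxcl3 had no count in CD51+CD140a+ MSCs and 1 to 38 counts in the Alcam+ libraries, which gave calls of at least 6.12-fold in Itga8+ MSCs (FDR = 0.0690) and at least 10.6-fold in Itga8- Alcam+ BLCs (FDR = 0.0477). The first was lost without Itga8+ replicate 3 and the second without Itga8- Alcam+ replicate 3, and both without any 1 of the CD51+CD140a+ libraries. Cxcl5 was at 0.946 to 4.09 CPM in CD51+CD140a+ MSCs, at least 15.7-fold above Itga8- Alcam+ BLCs (FDR = 0.0424), a call lost without Itga8- Alcam+ replicate 1 and without CD51+CD140a+ replicate 3. Cxcl15 had 3 counts at most.

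The promoters of the CXCR2 ligands are shown because neighbours with different levels carried one motif in common. RefSeq promoter windows (GRCm38.p6, 250 bases before each start searched) were at hand for 26 of the 36 ligands, and the kappaB consensus motif, bound by NF-kB factors, was found on either strand in 6 of them (Ccl20, Ccl9, Cxcl1, Cxcl10, Cxcl2 and Cxcl3). It was found in 3.90% of all 32851 windows. Cxcl1, Cxcl2 and Cxcl3 held the same 11-base match, shown in capitals within 110 bases, starting 71, 97 and 73 bases before the start.
Cxcl1, chr5:90891105-90891214, plus strand: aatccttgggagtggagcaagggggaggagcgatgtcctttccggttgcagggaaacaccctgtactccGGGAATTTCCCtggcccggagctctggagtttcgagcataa
Cxcl2, chr5:90903733-90903842, plus strand: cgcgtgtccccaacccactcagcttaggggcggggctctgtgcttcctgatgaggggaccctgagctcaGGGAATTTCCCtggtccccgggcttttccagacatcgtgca
Cxcl3, chr5:90785959-90786068, plus strand: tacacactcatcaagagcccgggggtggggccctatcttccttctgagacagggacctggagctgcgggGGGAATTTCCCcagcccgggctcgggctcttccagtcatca

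These 3 windows thus had the match in common, while the mean levels in Sca-1+ MSCs were 474 TPM for Cxcl1, 18.7 TPM for Cxcl2 and 0.480 TPM for Cxcl3. In CD51+CD140a+ MSCs the values were 337, 2.86 and 0 TPM. The genes lie on the plus strand of chromosome 5 in the order Cxcl5 (chr5:90759360-90761624), Cxcl3 (chr5:90786103-90789600), Cxcl15 (chr5:90794534-90803067), Cxcl1 (chr5:90891241-90893115) and Cxcl2 (chr5:90903871-90905938). Cxcl2 and Cxcl3 share sequence, and 94.2% of the 50-base words of Cxcl2 transcripts were found in no other gene.

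The CXCR3 ligands Cxcl9 and Cxcl10, which are induced by interferon and attract activated T cells and NK cells, marked CD51+CD140a+ MSCs. Both were called lower in each of the other 3 populations, and no call was made among those 3. The shares of all genes called lower were 14.3% for Itga8+ MSCs, 14.9% for Itga8- Alcam+ BLCs and 9.3% for Sca-1+ MSCs. Cxcl9 was at 39.2, 27.5 and 29.3 CPM in CD51+CD140a+ MSCs. In the other 9 libraries it ran from 0 to 2.14 CPM. CD51+CD140a+ MSCs exceeded Itga8+ MSCs 43.3-fold (FDR = 0.00797), Itga8- Alcam+ BLCs 24.4-fold (FDR = 0.0142) and Sca-1+ MSCs 39.8-fold (FDR = 0.0117). The log2 fold change of Sca-1+ over CD51+CD140a+ MSCs, -5.31, was -7.87 without Sca-1+ replicate 2 and -4.72 without Sca-1+ replicate 3, and that of Itga8+ MSCs went from -5.44 to -6.38 without Itga8+ replicate 3.

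Cxcl10 was at 105, 44.8 and 73.6 CPM in CD51+CD140a+ MSCs, all above the other 9 libraries. It was at 6.53, 14.5 and 8.32 CPM in Itga8+ MSCs, 11.9, 14.1 and 28.7 CPM in Itga8- Alcam+ BLCs and 8.08, 8.29 and 14.6 CPM in Sca-1+ MSCs, and these 3 populations overlapped with each other. The fold of CD51+CD140a+ MSCs was 7.61 over Itga8+ MSCs (FDR = 0.000945), 4.09 over Itga8- Alcam+ BLCs (FDR = 0.00699) and 7.22 over Sca-1+ MSCs (FDR = 0.00135). Overlapping exons of Art3 on the opposite strand cover 5.91% of the exon length of Cxcl10.

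Cxcl9 (chr5:92321347-92328079) and Cxcl10 (chr5:92346638-92348889) both lie on the minus strand of chromosome 5 and start 20.8 kb apart. Their upstream stretches are shown because the ligands moved together and differ in these motifs. The Cxcl10 window held a pair of separate kappaB matches (in capitals), 1 match to the core of the interferon-stimulated response element (GAAA, any 2 bases, GAAA) 213 bases before the start, and 1 to the AP-1 motif (TGANTCA), which were found on either strand in 2.98% and 6.75% of all windows. The capitals mark kappaB matches only. The Cxcl9 stretch has none, since its window held none of these 3 motifs, and its match to TATAAA, searched on the sense strand only and found in 7.59% of windows, began 195 bases before the start. A match is only a run of letters, and its absence says nothing about binding.
Cxcl10, chr5:92348953-92349062, minus strand: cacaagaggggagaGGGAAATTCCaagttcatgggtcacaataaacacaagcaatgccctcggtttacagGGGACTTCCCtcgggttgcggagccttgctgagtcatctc
Cxcl9, chr5:92328080-92328189, minus strand: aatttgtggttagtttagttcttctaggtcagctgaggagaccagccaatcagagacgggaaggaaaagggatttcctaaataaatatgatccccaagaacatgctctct

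Cx3cl1 (chr8:94772009-94782427), the membrane-anchored ligand of Cx3cr1 on monocytes, was at 513, 528 and 666 CPM in CD51+CD140a+ MSCs. It was at 32.5, 9.55 and 66.5 CPM in Itga8+ MSCs, 36.9, 33.3 and 17.2 CPM in Itga8- Alcam+ BLCs and 23.2, 40.2 and 22.1 CPM in Sca-1+ MSCs. The lowest and the highest of these 9 libraries were both Itga8+ MSCs, so that the 3 populations overlapped, and all lay below CD51+CD140a+ MSCs. The fold of CD51+CD140a+ MSCs was 15.7 over Itga8+ MSCs (FDR = 0.000530), 19.5 over Itga8- Alcam+ BLCs (FDR = 0.000343) and 19.9 over Sca-1+ MSCs (FDR = 0.000400). Without Itga8+ replicate 3 the first log2 value went from -3.98 to -4.75. Xcl1, the XC ligand of dendritic cells, had 1 count over all 12 libraries.

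Cxcl14 (chr13:56288643-56296551), a CXC chemokine expressed by many epithelia and stromal cells, was highest in CD51+CD140a+ MSCs. It was at 744, 860.4 and 851 CPM in CD51+CD140a+ MSCs and at 113, 70.4 and 73.1 CPM in Itga8+ MSCs. Itga8- Alcam+ BLCs held 196, 119 and 123 CPM, and Sca-1+ MSCs 53.7, 67.7 and 62.0 CPM. No 2 populations overlapped, which gave the order CD51+CD140a+, Itga8- Alcam+, Itga8+ and Sca-1+. CD51+CD140a+ MSCs exceeded Itga8+ MSCs 9.58-fold (FDR = 1.8e-05), Itga8- Alcam+ BLCs 5.61-fold (FDR = 9.1e-05) and Sca-1+ MSCs 13.4-fold (FDR = 7.6e-06). Cxcl14 was also 2.39-fold higher in Itga8- Alcam+ BLCs than in Sca-1+ MSCs (FDR = 0.00984), a call lost without Itga8- Alcam+ replicate 1, where the log2 value was 0.94. Itga8+ MSCs lay between these and differed from neither by the test (FDR = 0.259 with Itga8- Alcam+ BLCs, FDR = 0.252 with Sca-1+ MSCs).

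Cxcl16, a transmembrane ligand of Cxcr6 that also binds oxidised lipoprotein, varied least among the 15 ligands by the ratio of its highest to its lowest mean. It was at 12.3, 26.3 and 14.7 CPM in Itga8+ MSCs and 16.2, 9.91 and 20.6 CPM in Itga8- Alcam+ BLCs. It was at 11.4, 9.0 and 4.45 CPM in Sca-1+ MSCs and at 15.1, 15.9 and 17.4 CPM in CD51+CD140a+ MSCs. It was called 2.14-fold higher in Itga8+ than in Sca-1+ MSCs (FDR = 0.0977), and this call was lost when any 1 library of Sca-1+ or CD51+CD140a+ MSCs, Itga8+ replicate 2 or Itga8- Alcam+ replicate 1 was left out. The gene overlaps Zmynd15 on the opposite strand over 18.3% of its exon length. Cxcl13, which guides B cells through Cxcr5, ranged from 1.22 to 2.80 CPM in the Sca-1+ libraries and from 1.06 to 2.65 CPM in the CD51+CD140a+ libraries, and had a count in only 1 Itga8+ library (0.520 CPM). It was called lower in Itga8+ MSCs than in both (FDR = 0.0858 and 0.0710). Without Itga8+ replicate 3 both calls stood with the Itga8+ libraries at 0, and without Itga8+ replicate 1 or 2 or CD51+CD140a+ replicate 1 or 3 both were lost. The call against Sca-1+ MSCs was also lost without any 1 Sca-1+ library or without Itga8- Alcam+ replicate 1.

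**Figure D4:**
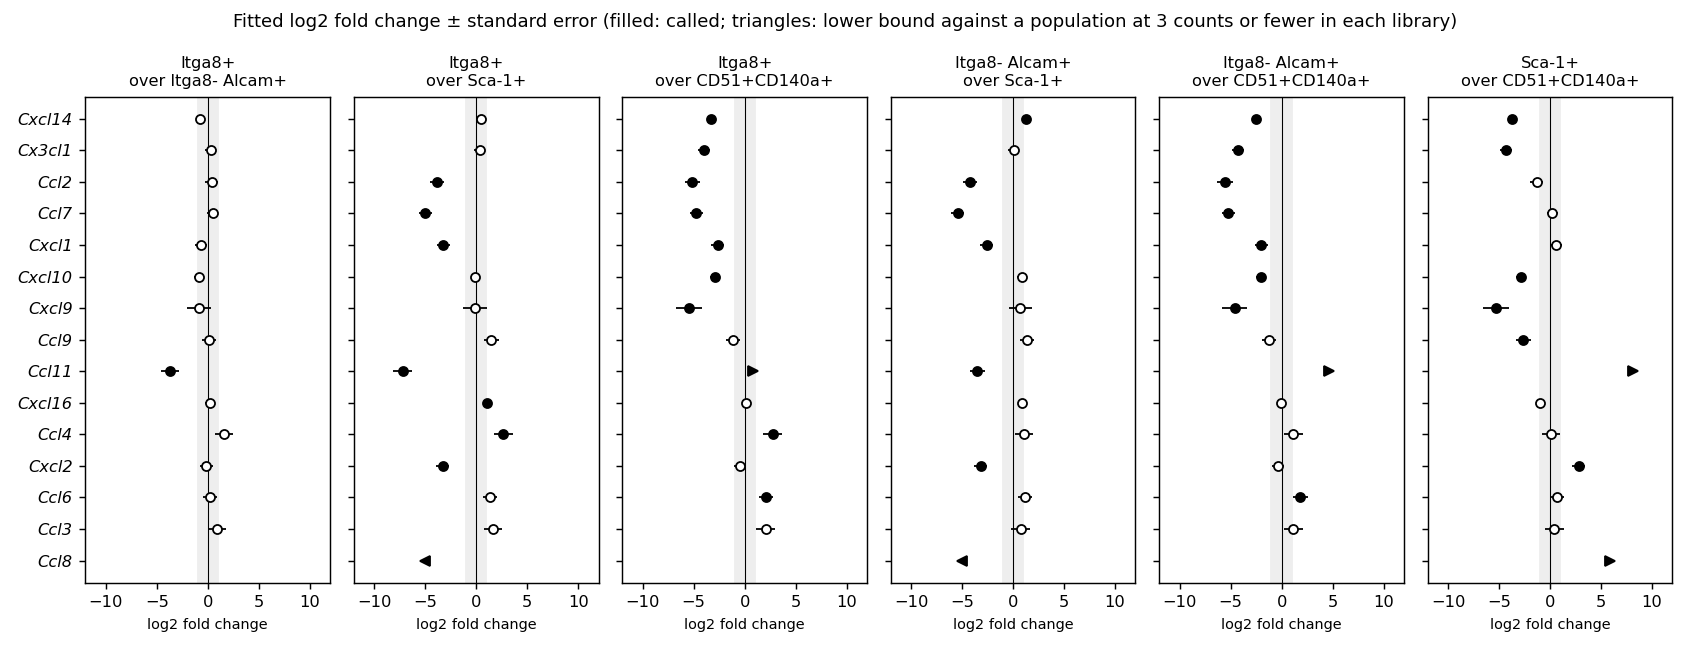
Log2 fold change (linear axis, error bars are standard errors of the edgeR fit) of the 15 ligands in each of the 6 comparisons, filled where called, with the grey band between -1 and 1. Triangles are lower bounds where 1 population had 3 counts or fewer in each library, and no symbol is drawn where both had. The panel of Itga8+ over Itga8- Alcam+ has 1 filled symbol, Ccl11, and in the panels of both Alcam+ sorts Ccl2, Ccl7 and Cxcl1 are filled on the left against Sca-1+ and against CD51+CD140a+ MSCs.

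The inflammatory CC ligands Ccl3, Ccl4, Ccl5, Ccl6 and Ccl9, which attract monocytes and T cells and are typically made by haematopoietic cells, formed a group whose calls in Itga8+ MSCs rested on 1 library. Ccl4 (macrophage inflammatory protein 1 beta) was at 3.56, 28.2 and 1.91 CPM in Itga8+ MSCs, whereas all other libraries lay between 0.464 and 5.23 CPM. Ccl3 was at 1.98, 13.1 and 1.85 CPM, with all other libraries between 0.164 and 3.43 CPM. Itga8+ replicate 2 was the highest of the 12 libraries for both, and the other Itga8+ libraries lay within the range of the rest. Ccl6 was at 6.43, 21.03 and 1.96 CPM in Itga8+ MSCs, 11.5, 6.62 and 6.95 CPM in Itga8- Alcam+ BLCs, 6.03, 3.10 and 2.16 CPM in Sca-1+ MSCs and 2.79, 2.58 and 1.64 CPM in CD51+CD140a+ MSCs. Ccl5 had 49 counts in Itga8+ replicate 2 and 18 at most elsewhere.

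For Itga8+ MSCs, Ccl4 was called higher against Sca-1+ MSCs (6.33-fold, FDR = 0.0778) and CD51+CD140a+ MSCs (6.70-fold, FDR = 0.0465), and Ccl6 against CD51+CD140a+ MSCs (4.20-fold, FDR = 0.0452), with overlapping libraries in each case. Without Itga8+ replicate 2 these calls were lost and the log2 fold changes went from 2.66 to 0.62, from 2.74 to 0.73 and from 2.07 to 0.87. The Ccl4 calls were also lost without any 1 Sca-1+ library in the first case and without CD51+CD140a+ replicate 1 in the second, and the Ccl6 call without CD51+CD140a+ replicate 3. Ccl6 was in addition 3.58-fold higher in Itga8- Alcam+ BLCs than in CD51+CD140a+ MSCs, with no overlap (FDR = 0.0673), a call lost without Itga8- Alcam+ replicate 1 or any 1 CD51+CD140a+ library. Ccl3 was called in no comparison by edgeR over all libraries, the nearest being 4.14-fold higher in Itga8+ than in CD51+CD140a+ MSCs (FDR = 0.111). It was called there with DESeq2 (FDR = 0.0559), which made more false calls on simulated counts. By edgeR it was called there without Itga8+ replicate 1 (FDR = 0.0829) or 3 (FDR = 0.0608). Without replicate 2 its log2 fold change was 0.52 (FDR = 0.687).

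Ccl9, a CCR1 ligand that attracts osteoclast precursors, had a different order. It was at 30.3, 26.6 and 22.3 CPM in CD51+CD140a+ MSCs and at 4.15, 28.7 and 2.83 CPM in Itga8+ MSCs. Itga8- Alcam+ BLCs held 7.42, 13.6 and 11.9 CPM and Sca-1+ MSCs 5.09, 5.09 and 2.62 CPM. CD51+CD140a+ MSCs stood above all libraries but Itga8+ replicate 2, and were called 6.19-fold higher than Sca-1+ MSCs (FDR = 0.0276), except without Sca-1+ replicate 3, where the log2 value was -2.37. Between the Alcam+ sorts the log2 fold change of Ccl9 was 0.12 (FDR = 0.990), and without Itga8+ replicate 2 it was -1.62 (FDR = 0.0567), lower in Itga8+ MSCs. Without that library Ccl9 was also called lower than in CD51+CD140a+ MSCs in both Alcam+ sorts, with the log2 fold change going from -1.15 (FDR = 0.225) to -2.89 (FDR = 0.000446) in Itga8+ MSCs and staying at -1.27 in Itga8- Alcam+ BLCs (FDR from 0.188 to 0.0120). Against Sca-1+ MSCs, Ccl9 was then called higher in Itga8- Alcam+ BLCs (1.32, FDR = 0.0141), as it was in a fit of only these populations (1.33, FDR = 0.0394), and without Itga8+ replicate 3 it was called higher in Itga8+ MSCs (1.88, FDR = 0.0477). Ccl5, Ccl9, Ccl6, Ccl3 and Ccl4 start within 132.1 kb of each other on chromosome 11, Ccl4 (chr11:83662584-83664683) on the plus strand and the others on the minus strand.

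Markers of neutrophils and monocytes moved with Ccl3, Ccl4, Ccl5 and Ccl6 in Itga8+ replicate 2, whereas Ccl9 was also high in CD51+CD140a+ MSCs, where these markers were low. All 12 of them were over 3 counts in each Itga8+ library, at least 11 in each Itga8- Alcam+ and Sca-1+ library and at least 10 in each CD51+CD140a+ library. Their summed level ran from 2322 to 11889 CPM in Itga8+ MSCs and from 4359 to 6529 CPM in Itga8- Alcam+ BLCs, whereas the Sca-1+ libraries ran from 889 to 1742 CPM and the CD51+CD140a+ libraries from 996 to 1711 CPM. S100a8 was at 1954 CPM in Itga8+ replicate 2 and at 144 and 81.8 CPM in its companions, the granulocyte marker Ly6g at 8.72 against 1.98 and 0.635 CPM, and the 6 erythroid markers summed to 1555 against 130 and 117 CPM. The 6 lymphocyte markers summed to 239 CPM in Itga8+ replicate 2 against 63.4 and 22.7 CPM. Of 4 tested, Cd79a, Cd79b and Nkg7 were called higher in both Alcam+ sorts than in Sca-1+ and in CD51+CD140a+ MSCs (12.9% and 21.2% of all genes for Itga8+ MSCs, 14.5% and 20.4% for Itga8- Alcam+ BLCs), while Cd3e had no count in any library. Ptprc, which encodes CD45, lay between 3.54 and 31.6 CPM in all 12 libraries. The part of such cells in the levels of Ccl3, Ccl4, Ccl5, Ccl6 and Ccl9 was not tested.

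**Figure D5:**
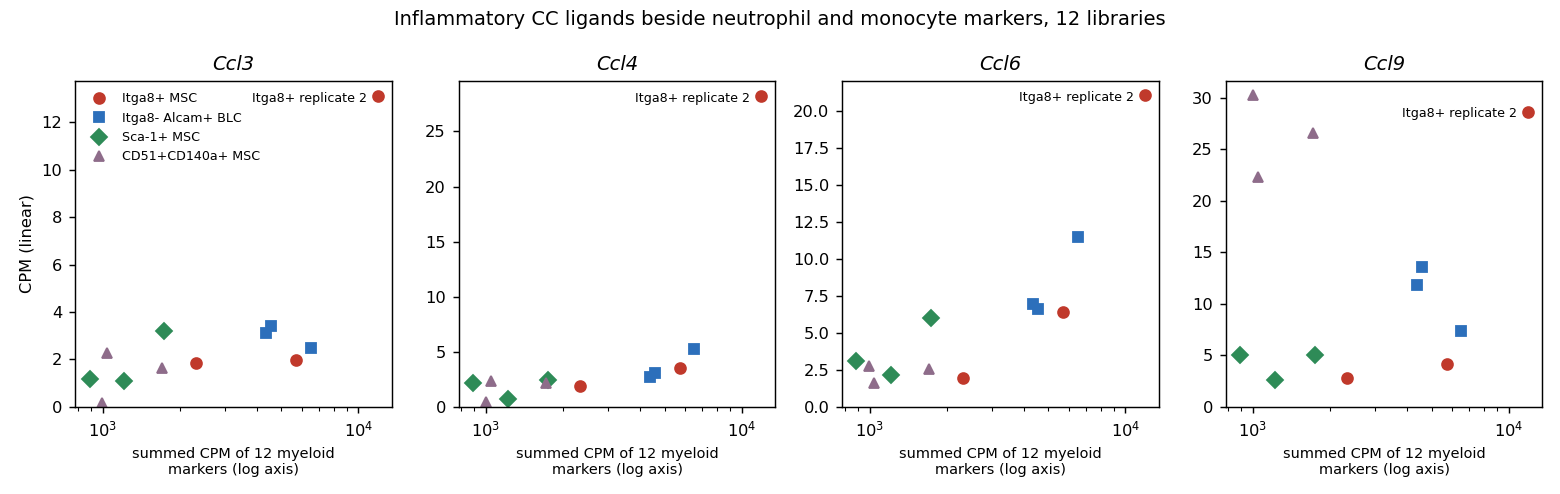
CPM (linear axis) of Ccl3, Ccl4, Ccl6 and Ccl9 against the summed CPM of 12 neutrophil and monocyte markers (log axis), with a point per library. Itga8+ replicate 2, at 11889 CPM of markers, is the highest library for Ccl3, Ccl4 and Ccl6, whereas the 3 CD51+CD140a+ libraries are high for Ccl9 with 996 to 1711 CPM of markers.

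The ligands that guide lymphocytes and dendritic cells were scarce. Of 11, 7 were not tested, and Ccl1, Ccl21a, Ccl21b and Ccl27b had no counts. Ccl21a, Ccl21b and Ccl27b share most of their sequence with close copies (28.4%, 0% and 1.86% of their 50-base words were found in no other gene), so that their counts are uncertain, and the same holds in part for Ccl27a (55.0%) and Ccl19 (48.0%). Ccl25, a thymic and intestinal ligand of Ccr9, was the steadiest, between 2.52 and 8.26 CPM in all 12 libraries, with no call. Ccl19, a Ccr7 ligand, gave 106 counts (3.04 CPM) in CD51+CD140a+ replicate 2, 1 count in replicate 1 and 0 in the other 10 libraries. Ccl17, a Ccr4 ligand, was at 0.792, 0.802 and 0.419 CPM in CD51+CD140a+ MSCs and had no count in Sca-1+ MSCs, at least a 4.39-fold difference (FDR = 0.0322), and it was at least 4.30-fold above Itga8- Alcam+ BLCs (FDR = 0.0644). The latter call was lost without Itga8- Alcam+ replicate 2 or 3 or CD51+CD140a+ replicate 1 or 2. A call of Ccl17 in Itga8+ over Sca-1+ MSCs (at least 1.45-fold, FDR = 0.0898) rested on 4, 9 and 0 counts and was lost in 9 of the 12 fits without 1 library. Ccl20, Ccl22 and Ccl28 had 9 counts at most. Ccl27a, a Ccr10 ligand, was at 1.29, 3.74 and 0.982 CPM in Itga8+ MSCs and between 0.278 and 0.974 CPM in the other 9 libraries. Each Itga8+ library lay above all of these, but no comparison passed the test (FDR = 0.108 to 0.218 for Itga8+ MSCs). DESeq2, which made more false calls on simulated counts, called Ccl27a in all 3 comparisons of Itga8+ MSCs. Among the remaining CXC ligands, Cxcl17 had 7 counts at most.

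A pair of chemokines whose symbols do not match the rule, the platelet proteins Pf4 and Ppbp, summed to between 0.719 and 2.06 CPM in the Sca-1+ libraries and between 3.02 and 19.6 CPM in all others. Both were called lower in Sca-1+ than in Itga8+ MSCs (FDR = 0.0196 and 0.0137) and in CD51+CD140a+ MSCs (FDR = 0.0186 and 0.0420). The shares of all genes called in these directions were 12.9% and 9.3%. Against Itga8- Alcam+ BLCs only Pf4 was called lower in Sca-1+ MSCs (14.5% of all genes).

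The receptors for these ligands were little read in the sorted cells. The 19 chemokine receptors other than Ackr1 to Ackr4, a list that includes the non-signalling chemerin receptor Ccrl2, summed to between 10.4 and 60.3 CPM per library, with Ccr1, Ccr2 and Ccrl2 the ones that reached 10 CPM in any library. Of 14 tested, 6 were called higher in Itga8+ than in CD51+CD140a+ MSCs (21.2% of all genes) and 5 in Itga8- Alcam+ BLCs than in CD51+CD140a+ MSCs (20.4%), with 0 lower in both, and the median log2 fold changes of the list were 1.496 and 1.99. In the same comparisons 7 and 8 of the 12 neutrophil and monocyte markers were called higher, and the receptors summed to 60.3 CPM in Itga8+ replicate 2 against 34.5 and 16.9 CPM in the other Itga8+ libraries. The part of such cells in the receptor levels was not tested. Ccr2, the receptor of Ccl2 and Ccl7, was at 6.28, 15.5 and 1.62 CPM in Itga8+ MSCs and at 1.91, 3.18 and 0.837 CPM in CD51+CD140a+ MSCs.

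Of the 4 atypical receptors, Ackr2, Ackr3 and Ackr4 differed widely between populations, whereas Ackr1 was called in none of the 6 comparisons, with population means between 2.46 and 6.18 CPM. Ackr2, which clears inflammatory CC chemokines, was at 76.6, 85.8 and 79.4 CPM in Sca-1+ MSCs, had no counts in CD51+CD140a+ MSCs and did not exceed 4.14 CPM in the Alcam+ sorts. Ackr3, a scavenger of Cxcl12, was at 642, 621 and 547 CPM in Sca-1+ MSCs and at 1.502, 2.12 and 0.515 CPM in CD51+CD140a+ MSCs (log2 fold change 8.76 ± 0.59 SE, FDR = 2.2e-06). Ackr4, a scavenger of Ccl19, Ccl21 and Ccl25, was at 449, 459 and 469 CPM in CD51+CD140a+ MSCs, at 8.10 to 9.53 CPM in Itga8+ MSCs and at 37.6 to 110.3 CPM in Itga8- Alcam+ BLCs. In the comparison of Itga8+ MSCs with Itga8- Alcam+ BLCs, where 3.82% of all genes were called, Ackr4 was the 1 of the 4 called.

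Genes that report NF-kB and interferon signalling were highest by summed level in CD51+CD140a+ MSCs. The NF-kB list summed to 3775 to 5289 CPM there and 1248 to 1934 CPM in the other libraries. The interferon list summed to 1432 to 2108 CPM there, against 194 to 395 CPM. Among the 15 ligands, Ccl2, Ccl9, Cx3cl1, Cxcl9, Cxcl10 and Cxcl14 also had their highest mean in CD51+CD140a+ MSCs. Ccl7, Ccl8, Ccl11, Cxcl1 and Cxcl2 had theirs in Sca-1+ MSCs, where the NF-kB list summed to 1524 to 1934 CPM. The part of this signalling in the ligand levels was not tested. Of 18 NF-kB pathway and feedback genes, 7 were lower (14.3% of all genes) and 0 higher in Itga8+ than in CD51+CD140a+ MSCs, with a median log2 fold change of -0.75. Among them Nfkbia, an inhibitor of NF-kB, was at 322, 796 and 316 CPM in Itga8+ MSCs and 1043, 1199 and 1628 CPM in CD51+CD140a+ MSCs. Tnfaip3, a feedback deubiquitinase, was at 33.5, 7.37 and 34.0 CPM against 895.5, 1087 and 1376 CPM. Against Sca-1+ MSCs, 3 of the 18 (Ikbkb, Nfkbiz and Tnfaip3) were lower in both Alcam+ sorts and 0 higher. The shares of all genes called lower were 8.89% for Itga8+ MSCs and 11.9% for Itga8- Alcam+ BLCs.

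Of 12 interferon-stimulated genes, 10 were lower in Itga8+ MSCs, all 12 in Itga8- Alcam+ BLCs and 7 in Sca-1+ MSCs than in CD51+CD140a+ MSCs, with 0 higher in each and median log2 fold changes of -2.51, -2.79 and -1.65. The shares of all genes called lower were 14.3%, 14.9% and 9.3%. Irf1, a transcription factor induced by interferon gamma, was at 920.4, 1171 and 1601 CPM in CD51+CD140a+ MSCs and at 100.4 to 308 CPM in all other libraries. Gbp2, a guanylate-binding protein, was at 85.2 to 108 CPM there and 3.58 to 36.4 CPM elsewhere. Among 25 inflammatory cytokines and their receptors, calls went both ways, with 9 lower (14.3% of all genes) and 5 higher (21.2% of all genes, near the share of the list) in Itga8+ than in CD51+CD140a+ MSCs. Csf1, which sustains monocytes and osteoclasts, was at 1817, 2829 and 1768 CPM in CD51+CD140a+ MSCs and at 77.4, 16.0 and 86.9 CPM in Itga8+ MSCs. Il33, an alarmin called lower in Itga8+ than in Sca-1+ MSCs, was at 237, 255 and 391 CPM in Sca-1+ MSCs and 6.42 CPM at most elsewhere. Immediate early and heat shock genes, which respond to cell dissociation, summed to 17696 to 23768 CPM in CD51+CD140a+ MSCs and 9338 to 14972 CPM in the other libraries. Of these 11 genes, 5 were called higher in CD51+CD140a+ MSCs in each of the 3 comparisons with them (9.3% of all genes for Sca-1+ MSCs, 14.3% for Itga8+ MSCs and 14.9% for Itga8- Alcam+ BLCs), not always the same 5, with Egr1, Jun and Junb among them each time. Calls also went the other way, with Ier3 lower in CD51+CD140a+ than in Itga8+ MSCs (21.2% of all genes), Hspa1a and Hspa1b lower than in Sca-1+ MSCs (11.2%), and Atf3, Hspa1a, Hspa1b and Ier3 lower than in Itga8- Alcam+ BLCs (20.4%). The part of the isolation in the ligand levels was not tested.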

How the data were processed

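RNA was isolated with the NucleoSpin RNA Plus XS kit, amplified with SMART-Seq v4 and made into Nextera XT libraries. The deposited files hold raw read counts per Ensembl gene, which the authors made against mm10. The submitters' processing notes name FastQC 0.11.7, Trimmomatic 0.38, HISAT2 2.1.0, SAMtools 1.9 and featureCounts 1.6.3, whereas the study's methods name TopHat and Bowtie2. The annotation release, the strand setting and the handling of reads with several matches are not given in the sources used here. Without strand, reads from overlapping genes on opposite strands cannot be told apart. Libraries were amplified without molecular identifiers, so floors of 3 counts cover counting error only.

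Gene names, lengths and coordinates came from GENCODE M21 (GRCm38), which held 49326 of the 49585 identifiers, and 259 were not matched. Counts were scaled by TMM (trimmed mean of M values) in edgeR 4.0.16 (R 4.3.3), and all 12 libraries entered 1 quasi-likelihood fit with a term per population, from which the 6 pairwise contrasts were taken. Genes with 0.5 CPM in at least 1 library were tested, and p-values were adjusted over all 18648 genes by the Benjamini-Hochberg method. Thresholds (FDR under 0.1, fold over 2) followed the study. TPM used the summed exon length per gene. Folds are ratios of mean CPM, or bounds against 3 counts per library. On simulated counts with 200 changed genes, edgeR called between 28% and 46% of 4-fold and between 75% and 82% of 8-fold changes, with 5 to 12 false calls per comparison. DESeq2 made 75 to 98 false calls per comparison. The simulation gave each gene 1 common mean over the populations and changed only genes with a mean above 1 CPM. In the data far more than 200 genes were called in each comparison. These shares therefore need not hold for the comparisons here or for rarer ligands. Counts of replicate pairs differed by far more than sampling noise (chi-square per gene of 19.6 or more), so none was a copy. Alternatives were DESeq2 1.42.0, limma 3.58.1 (trend, prior count 3), other scalings and filters, a stricter FDR, a replicate block, fits of only the populations compared, and leaving out each library.

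Ligands with a mean of at least 5 CPM in a population are described by library, the others by ranges and counts, and from each pathway list up to 4 called genes with the highest mean CPM could be named, beside Pf4, Ppbp and Cxcl12. The members, lists and the rule for named genes were chosen with earlier results of these data known.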

Additional observations from a re-analysis of the deposited data

How the results depend on the processing

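Of the 51 ligand calls, 35 were kept under all 21 alternatives. Over 2875 values of single ligands, 2742 kept their side of the thresholds (73 of them changed sign with neither fit past the thresholds), 92 lost a call, 40 gained one, and 1 reversed, Ccl9 in Itga8+ MSCs over Itga8- Alcam+ BLCs, which ran from -1.62 without Itga8+ replicate 2 to 0.56 without Itga8+ replicate 3. Between the Alcam+ sorts, the single call became 2 with DESeq2, 0 with the replicate block and 0 in a fit of only the populations compared, and 0 to 2 when a library was left out (0 without Itga8+ replicate 1 or Itga8- Alcam+ replicate 3, 2 without Itga8+ replicate 2). At an unadjusted p under 0.05, 4 of the 23 tested ligands passed there. The share of all genes at that level was not counted, so nothing is drawn from this number. The 10 calls of Itga8+ over Sca-1+ MSCs became 6 in a fit of only these populations and 6 at an FDR under 0.05, and 6 to 13 when a library was left out (6 without Itga8+ replicate 2 or any 1 Sca-1+ library). The other counts stayed within 1.5 times: 8 to 14 for Itga8+ and 10 to 13 for Itga8- Alcam+ over CD51+CD140a+ MSCs, 7 to 9 for Itga8- Alcam+ over Sca-1+ and 9 to 11 for Sca-1+ over CD51+CD140a+ MSCs, and when a library was left out 8 to 13, 9 to 13, 6 to 10 and 8 to 10. The causes were not tested, beyond the fewer samples in some fits.

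Whether replicate numbers pair the samples was not settled. Deviations of same-numbered libraries from their population means correlated at between -0.736 and 0.342, and those of different-numbered libraries were not set beside them. The replicate block ended 6 calls. These were Ccl11 between the Alcam+ sorts (-3.53, FDR = 0.157), Ccl17 (FDR = 0.157), Ccl4 (FDR = 0.181) and Cxcl16 (FDR = 0.173) in Itga8+ over Sca-1+ MSCs, and Ccl11 (FDR = 0.103) and Ccl4 (FDR = 0.141) in Itga8+ over CD51+CD140a+ MSCs. For Itga8+ over Sca-1+ MSCs, a fit of only these populations ended the calls of Ccl4 (FDR = 0.146), Cxcl13 (0.120) and Cxcl16 (0.190), and limma-trend those of Ccl4 (0.173) and Ccl17 (0.147). For Itga8+ over CD51+CD140a+ MSCs, the former ended those of Ccl4 (0.112), Ccl6 (0.106) and Cxcl13 (0.112), and limma-trend those of Ccl4 (0.107), Ccl6 (0.129), Ccl11 (0.323) and Cxcl3 (0.188). Besides Ccl3 and Ccl9, calls were gained without Itga8+ replicate 3 (Ccl6 and Ccl27a in Itga8+ over Sca-1+ MSCs, Ccl27a in Itga8+ and Cxcl13 in Itga8- Alcam+ over CD51+CD140a+ MSCs, Cxcl13 in Itga8- Alcam+ over Sca-1+ MSCs), without Itga8+ replicate 2 (Cxcl5 in Itga8+ and Cxcl3 in Sca-1+ over CD51+CD140a+ MSCs, Cxcl5 and Cxcl13 in Itga8- Alcam+ over Sca-1+ MSCs), and without Itga8- Alcam+ replicate 2 (Cxcl16 over Sca-1+ MSCs), replicate 3 (Cxcl13 over CD51+CD140a+ MSCs) or Sca-1+ replicate 1 (Cxcl5 in Itga8- Alcam+ over Sca-1+ MSCs).

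Among all genes, the 712 calls between the Alcam+ sorts became 276 in a fit of these alone, 433 with the replicate block, 464 at an FDR under 0.05, 1203 with DESeq2, and 433 to 886 when a library was left out, and the 4055 calls of Itga8+ over Sca-1+ MSCs became 2386 to 5878 when a library was left out. Scaling by library totals alone moved the median of all genes' log2 fold changes from 0.08 to 0.34 between the Alcam+ sorts, from 0.12 to -0.07 for Itga8- Alcam+ BLCs over Sca-1+ MSCs and from 0.09 to -0.24 over CD51+CD140a+ MSCs, and the genes called higher in the first went from 310 of 712 to 495 of 808, from 2706 of 4930 to 2170 of 5099 and from 3808 of 6578 to 2936 of 7026. No ligand call changed direction under any other scaling. Ligands under about 1 CPM rest on few counts, and changes in them may not be detectable at this depth.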
